A study of Mus musculus with 7 samples.

Results

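The 41 genes described here encode the contractile apparatus of fast skeletal muscle: the proteins of the thick and thin filaments, titin and the M-band, the Z-disc, and a few enzymes and turnover factors that work on them. They were taken from a named list of fast-fibre and pan-fibre genes, and all 41 of them are among the 55450 genes of the count table and among the 17959 genes tested. They were read in dorsal skin of wild-type male C57BL/6 mice aged 24 months. After hair removal, 4 mice received the vehicle DMSO alone (mice 480, 481, 482 and 483) and 3 mice received 5 µM ABT-263 in DMSO (mice 476, 477 and 478), applied on the skin for 5 days. ABT-263 (navitoclax) inhibits anti-apoptotic proteins of the Bcl-2 family. Whole skin was homogenized, and polyA RNA of each mouse gave 1 library. The libraries held 20344364 to 26824123 counts after DMSO and 27325963 to 43562330 after ABT-263.

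Mouse skin rests on a thin sheet of skeletal muscle, the panniculus carnosus, made mostly of fast fibres. In a sarcomere, myosin heads of the thick filament pull on actin of the thin filament. Calcium starts this pull by binding troponin C, which with troponin I and troponin T sits on tropomyosin along the actin strand. Titin spans from Z-disc to M-band, and nebulin runs along the thin filament. Fast fibres use their own genes for most of these parts (Tnnc2, Tnni2, Tnnt3, Myh1, Myh4, Mylpf), and slow fibres use a partner gene for each. The sarcomere genes range from very short to the longest transcripts of the genome, and the comparison below sets long structural genes (Ttn, Neb, Myh1, Myh4) beside short troponin and light chain genes (Tnnc2, Tnni2, Tnnt3, Myl1, Mylpf).

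Promoter sequences are shown for a short and a long gene that were lower after ABT-263 (Tnnc2, Ttn) and for a short and a long gene that did not pass the test (Mylpf, Myh4). Each is the 250 bases before the RefSeq start on GRCm38.p6, read 5′ to 3′ on the strand of the gene. Capitals mark matches to the E-box CANNTG, which factors of the MyoD family bind, to the MCAT element CATTCC, which TEAD factors bind, and to the MEF2 motif, each searched on both strands.
Tnnc2, chr2:164779735-164779984, minus strand: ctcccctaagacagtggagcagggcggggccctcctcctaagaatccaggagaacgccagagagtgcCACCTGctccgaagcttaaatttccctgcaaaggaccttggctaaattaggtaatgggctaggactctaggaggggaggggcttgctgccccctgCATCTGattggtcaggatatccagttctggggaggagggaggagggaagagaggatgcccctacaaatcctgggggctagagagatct
Ttn, chr2:76982548-76982797, minus strand: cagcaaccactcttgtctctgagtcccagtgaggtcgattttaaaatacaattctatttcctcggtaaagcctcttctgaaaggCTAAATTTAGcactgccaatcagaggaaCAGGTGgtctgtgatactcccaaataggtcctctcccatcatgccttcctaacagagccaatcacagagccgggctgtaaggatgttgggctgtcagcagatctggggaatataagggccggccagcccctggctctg
Mylpf, chr7:127211358-127211607, plus strand: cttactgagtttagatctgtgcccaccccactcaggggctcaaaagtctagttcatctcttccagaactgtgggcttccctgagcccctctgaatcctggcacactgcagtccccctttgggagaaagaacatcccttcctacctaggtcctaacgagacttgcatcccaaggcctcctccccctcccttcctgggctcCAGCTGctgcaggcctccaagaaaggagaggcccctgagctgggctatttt
Myh4, chr11:67237562-67237811, plus strand: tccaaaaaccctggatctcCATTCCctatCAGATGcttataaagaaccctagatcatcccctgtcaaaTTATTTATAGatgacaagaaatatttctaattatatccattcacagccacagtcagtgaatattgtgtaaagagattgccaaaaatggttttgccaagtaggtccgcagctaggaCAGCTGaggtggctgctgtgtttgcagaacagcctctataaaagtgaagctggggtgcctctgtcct
RefSeq promoters were at hand for 30 of the 41 genes. An E-box stood in 24 of these 30 and in 66.1% of all 27018 promoters, CATTCC in 10 and in 12.6%, and a MEF2 match in 5 (Klhl41, Myh1, Myh4, Ttn and Xirp2) and in 3.01%. A plain TATAAA box was found in 6 of the 30 and in 13% of all promoters. Among the 4 genes printed, the MEF2 match was in a gene that was lower (Ttn) and in a gene that did not pass (Myh4), and an E-box was in each of the 4.

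In these samples the myosin heavy chain genes of fast fibres stood far above their slow partner. On a scale of counts per length of annotated exon and library size (RPKM), the medians after DMSO were 944 for Myh1 (heavy chain of IIx fibres), 295 for Myh2 (IIa) and 279.7 for Myh4 (IIb), against 0.158 for Myh7, the heavy chain of slow fibres. The same held for the troponins. Tnnc2 stood at 13520 RPKM against 12.1 for the slow gene Tnnc1, Tnni2 at 4733 against 13.7 for Tnni1, and Tnnt3 at 7041 against 31.7 for Tnnt1. Skeletal actin (Acta1) was at 9761 RPKM and cardiac actin (Actc1) at 2.37. Not all partner genes had this order. The slow myosin-binding protein gene Mybpc1 was at 413.9 RPKM, above its fast partner Mybpc2 at 92.2. Myoz2, of the slow fibre list, was at 69.0 RPKM against 283 for Myoz1 and 26.0 for Myoz3. Among the 41 genes, the medians after DMSO ran from 4.18 RPKM for Ankrd23 to 13520 RPKM for Tnnc2, and titin (16.3) and nebulin (13.6) were near the bottom on this scale. Their long exons still drew many reads, and no gene of the 41 had fewer than 161 counts in any library.

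Together the 41 genes took 5.48%, 10.8%, 9.94% and 11.8% of the counts in DMSO mice 480, 481, 482 and 483, and 6.47%, 5.14% and 7.37% in ABT-263 mice 476, 477 and 478. DMSO mouse 480 therefore lay among the ABT-263 mice, and the groups overlapped. It was the lowest DMSO mouse in 38 of the 41 genes. In the ABT-263 group, mouse 477 was the lowest in 35 genes and mouse 478 the highest in 30. In bulk skin, a smaller share of muscle fibres and less RNA per fibre cannot be told apart, and how much of the muscle layer each piece of skin held is not given in the sources used here.

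**Figure D1:**
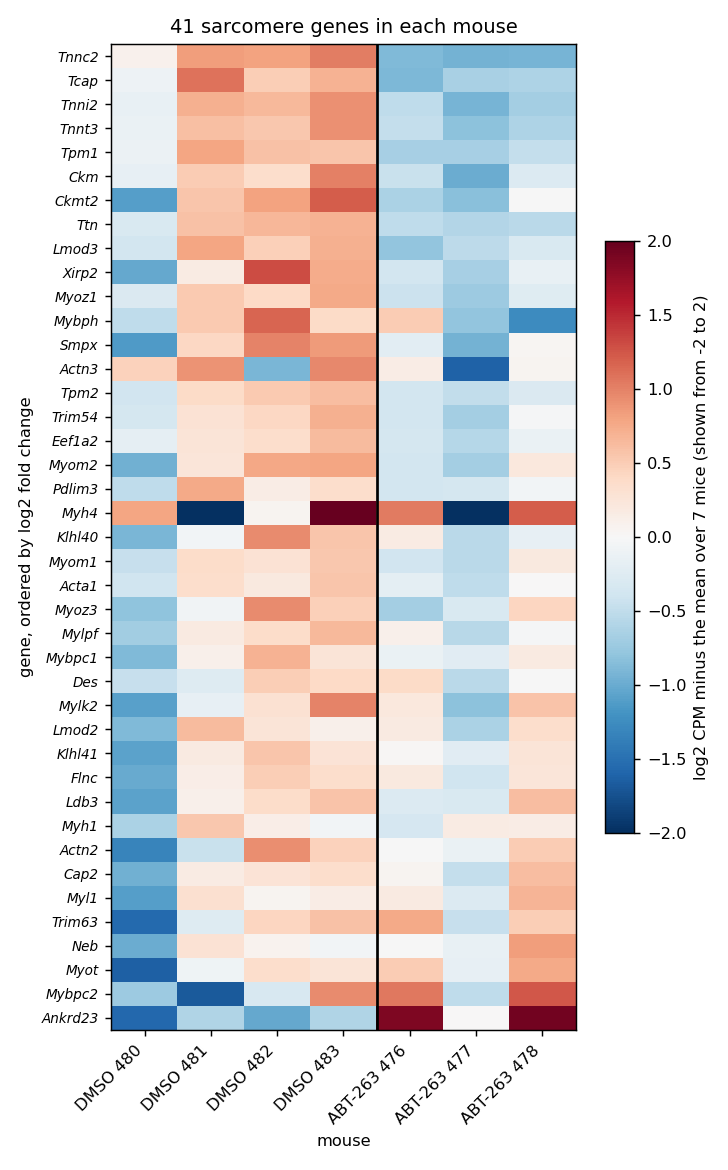
Colour gives log2 CPM (counts scaled to library size, TMM-normalized) of each of the 41 sarcomere genes (rows, ordered by log2 fold change) minus its mean over the 7 mice (columns). Mouse 480 is the lowest of the DMSO mice in 38 of 41 genes. The genes at the top (Tnnc2, Tcap, Tnni2) are bluer in the 3 ABT-263 mice than in any DMSO mouse, and Ankrd23 at the bottom is redder.

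Treatment was compared for each gene with edgeR's quasi-likelihood test, with Benjamini-Hochberg adjustment over all 17959 genes and a threshold of 0.05. Lower after ABT-263 were 8 of the 41 genes (19.5%), against 11.7% of all genes tested. Only 1 gene, Ankrd23, was higher (2.44%), against 12.4% of all genes tested. In either direction 22% of the 41 passed, against 24.2% of all genes, so the share that changed was close to the background. Its split was 8 lower to 1 higher, against 2108 lower to 2234 higher among all genes. The median log2 fold change was -0.44 over the 41 genes and 0.00 over all genes, and 33 of the 41 values were negative. Every ABT-263 mouse lay below every DMSO mouse in 7 of the genes (17.1%, against 18.4% of all genes tested) and above in 1 (2.44%, against 18.7%). The genes that were lower are Tnnc2, Tcap, Tnni2, Tnnt3, Tpm1, Ttn, Lmod3 and Myoz1. Of the 9 thin filament genes, 5 were lower. None of the 5 genes for myosin heavy chains, light chains and the light chain kinase (Mylk2), and none of the 3 myosin-binding proteins, passed the test. Without DMSO mouse 480, 16 of the 41 genes were lower, these 8 and Tpm2, Xirp2, Pdlim3, Smpx, Trim54, Ckm, Ckmt2 and Eef1a2. The count was 3 without DMSO mouse 481, 2 without ABT-263 mouse 477, and 1 without DMSO mouse 482, DMSO mouse 483, ABT-263 mouse 476 or ABT-263 mouse 478. The number of all genes past the threshold, in either direction, was 4342 with every mouse and changed as well. It was 4169, 2837, 1824 and 2063 without DMSO mouse 480, 481, 482 or 483. Without ABT-263 mouse 476, 477 or 478 it was 2228, 4026 and 1735. Tnnc2 passed in all 7 of these fits, Tcap without mouse 480, 481 or 477, Tnni2 without mouse 480 or 481, and the other 5 genes only without mouse 480.

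**Figure D2:**
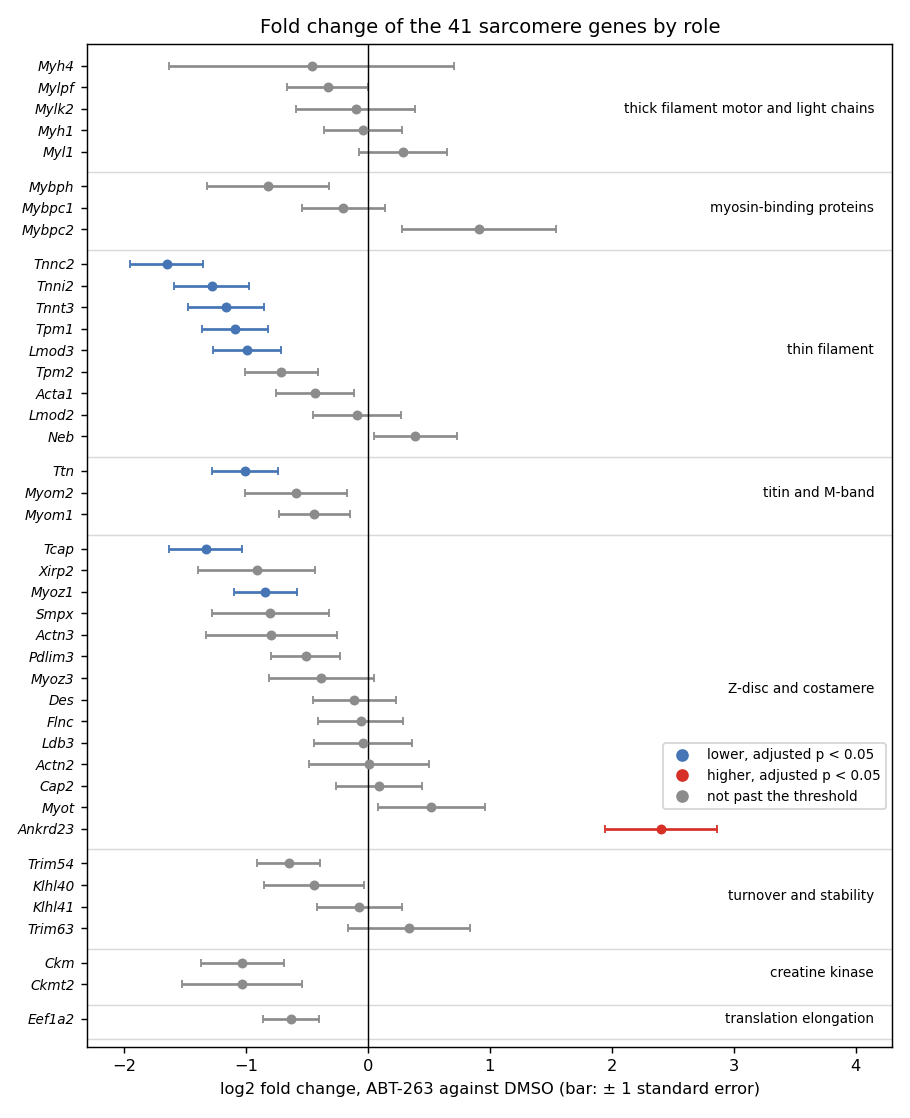
Points give the log2 fold change of each of the 41 genes (ABT-263, 3 mice, against DMSO, 4 mice) and bars 1 standard error, grouped by role. Blue genes were lower (8) and the red gene, Ankrd23, higher (1) at an adjusted p under 0.05, and grey genes did not pass.

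All 3 fast troponin genes fell, and Tnnc2 had the largest decrease of the 41 genes. Tnnc2, the calcium-binding subunit, was at 6537, 10960, 10670 and 12490 CPM in DMSO mice 480 to 483 and at 3319, 3197 and 3221 CPM in ABT-263 mice 476 to 478. The groups did not overlap, and the 3 treated mice were nearly alike. The decrease was 3.13-fold (log2 fold change -1.65, standard error 0.30, edgeR adjusted p = 0.0104). It passed the test with each of the 7 mice left out in turn, with values from -1.81 to -1.54. Tnnc2 has 800 exonic bases on chr2:164777161-164779967 (GRCm38), and 74% of them lie opposite exons of Ube2c, which counting on the same strand separates. Tnni2, the inhibitory subunit, stood at 3988, 7205, 6965 and 8341 CPM after DMSO and at 3095, 2324 and 2745 CPM after ABT-263. It was lower in each treated mouse than in any control, by 2.43-fold (log2 -1.28, standard error 0.31, edgeR adjusted p = 0.0233). Tnnt3, the subunit that binds tropomyosin, stood at 6835, 11380, 10910 and 14080 CPM after DMSO and at 5389, 4242 and 4874 CPM after ABT-263. Again the groups were apart, with a 2.23-fold decrease (log2 -1.16, standard error 0.31, edgeR adjusted p = 0.0319). Tnni2 and Tnnt3 lie near each other on chromosome 7 (142441808 to 142444410 and 142498836 to 142516009).

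Of the other thin filament genes, tropomyosin 1 fell too. Tpm1 was at 3623, 6815, 5888 and 5810 CPM after DMSO and 2488, 2481 and 2823 CPM after ABT-263, with no overlap and a 2.13-fold decrease (log2 -1.09, standard error 0.27, edgeR adjusted p = 0.0265). Tpm1 is also used by smooth muscle and fibroblasts, so not all of its counts need be from muscle fibres. Lmod3, a leiomodin that nucleates actin in skeletal muscle, was at 76.5, 171, 138 and 161 CPM after DMSO and 57.2, 68.3 and 80.2 CPM after ABT-263. Its groups overlapped through mouse 480, and it was 1.99-fold lower (log2 -0.99, standard error 0.28, edgeR adjusted p = 0.0356). Skeletal actin did not pass. Acta1 was at 9380, 15750, 14240 and 18200 CPM after DMSO and 10810, 8745 and 12530 CPM after ABT-263, with a log2 fold change of -0.43 (95% interval -1.16 to 0.30, edgeR adjusted p = 0.348). Tropomyosin 2 (Tpm2) had a value of -0.71 (edgeR adjusted p = 0.112) and the leiomodin Lmod2 of -0.09 (edgeR adjusted p = 0.873).

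No gene for a light chain or heavy chain of myosin passed the test. Mylpf, the fast regulatory light chain with 1062 exonic bases, was at 1253, 2290, 2608 and 3169 CPM after DMSO and 2174, 1377 and 2005 CPM after ABT-263. All 3 treated mice lay inside the range of the controls, and the 95% interval of the log2 fold change, -1.10 to 0.43, includes no change (edgeR adjusted p = 0.492). Myl1, the fast essential light chain, was at 370.2, 997.8, 824.3 and 885.7 CPM after DMSO and 899.9, 657.1 and 1272 CPM after ABT-263, with an interval of -0.53 to 1.12 (edgeR adjusted p = 0.578). Its highest value was in a treated mouse and its lowest in a control. Myh1 was at 3741, 8468, 6387 and 5603 CPM after DMSO and 4605, 6528 and 6460 CPM after ABT-263. The log2 fold change was -0.04 with an interval of -0.78 to 0.69 (edgeR adjusted p = 0.932), and its sign turned without DMSO mouse 481 (0.16) or ABT-263 mouse 476 (0.11).

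Myh4, the heavy chain of IIb fibres, varied widely between mice of the same group. It was at 2104, 187, 1261 and 6463 CPM in DMSO mice 480 to 483 and at 2481, 172 and 2793 CPM in ABT-263 mice 476 to 478. Mouse 481 and mouse 477, in different groups, were both far below the rest. The interval of the log2 fold change ran from -3.19 to 2.26 (edgeR adjusted p = 0.798), and the sign turned without DMSO mouse 483 (0.61) or ABT-263 mouse 477 (0.10). The log2 ratio of Myh4 to Myh1 per length was -0.75, -5.42, -2.26 and 0.28 after DMSO and -0.81, -5.16 and -1.13 after ABT-263. Fast myosin-binding protein C, Mybpc2, was also lowest in mouse 481 of the controls and mouse 477 of the treated mice, at 147 and 331 CPM, against 286 to 907 and 986 to 1113 CPM in the others. Not all genes of fast fibres had this order. Among the controls, Actn3 was lowest in mouse 482 (314 CPM, with 1104 in mouse 481), and parvalbumin (Pvalb) was highest in mouse 481 (2506 CPM). Among the treated mice both were lowest in mouse 477 (192 and 126 CPM).

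The coding sequences of Myh1 and Myh4 are 90.1% identical, with a longest identical run of 161 bases. A read pair with both reads wholly inside such shared sequence fits both genes and is no unique alignment. The 60-base window in which they differ most is shown because reads across it tell the genes apart. It spans coding bases 3851 to 3910 of Myh1 and 3842 to 3901 of Myh4 in the GENCODE M21 transcripts, and capitals mark its 20 differing bases.
Myh1: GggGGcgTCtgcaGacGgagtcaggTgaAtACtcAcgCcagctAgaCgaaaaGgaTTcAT
Myh4: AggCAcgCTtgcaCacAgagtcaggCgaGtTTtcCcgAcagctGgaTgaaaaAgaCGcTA
Myh1 lies on chr11:67200052-67224575 and Myh4 on chr11:67238029-67260446, next to each other on GRCm38. Myh2, 91.0% identical to Myh1 and not among the 41 genes, was at 1060, 2370, 2261 and 1953 CPM after DMSO and 1080, 1192 and 1112 CPM after ABT-263 (log2 -0.76, edgeR adjusted p = 0.0887). Mouse 480 again lay with the treated mice.

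**Figure D3:**
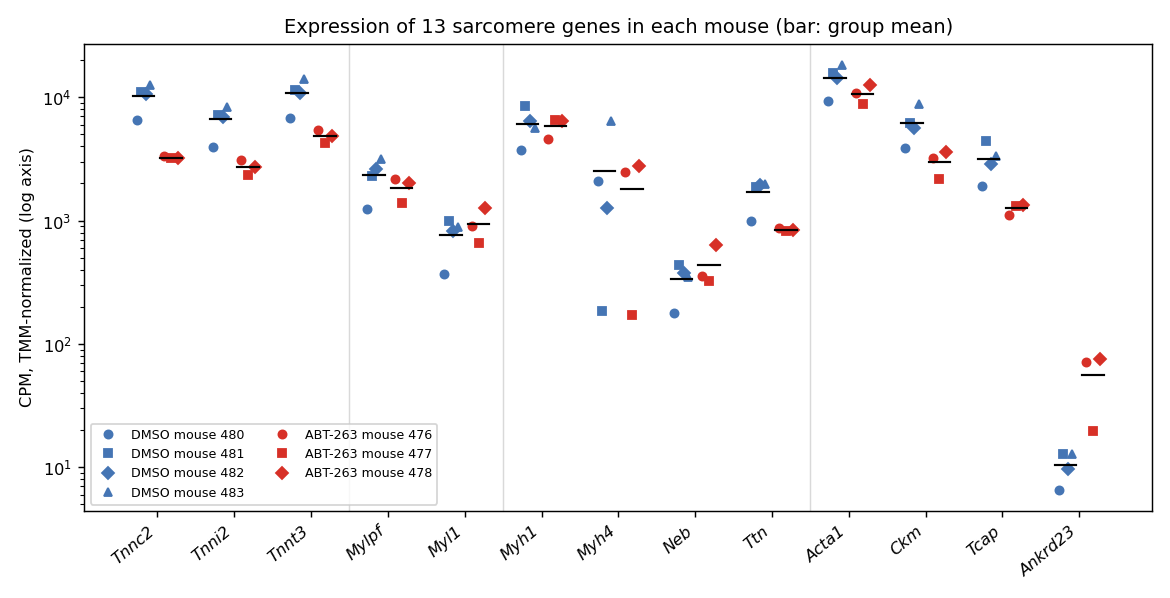
Each point is the TMM-normalized CPM of a gene in a mouse on a log axis, blue for DMSO (4 mice) and red for ABT-263 (3 mice), with bars at group means. Tnnc2, Tnni2 and Tnnt3 on the left are apart between groups, Mylpf, Myl1, Myh1, Myh4 and Neb overlap, and Myh4 is below 200 CPM in mice 481 and 477.

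Of the 2 giant genes, titin fell and nebulin did not pass, and the difference between them was not tested. Ttn, titin, with 116825 exonic bases on chr2:76703980-76982547, was at 997, 1859, 1956 and 1995 CPM after DMSO and 870, 823 and 847 CPM after ABT-263. The treated mice were close together and below every control, with mouse 480 the nearest, and titin was 2.01-fold lower (log2 -1.01, standard error 0.27, edgeR adjusted p = 0.0316). Neb, nebulin, with 26582 exonic bases on chr2:52136647-52378474, was at 179, 434, 377 and 346 CPM after DMSO and 357, 321 and 638 CPM after ABT-263. Its groups overlapped, and the log2 fold change was 0.39 with an interval of -0.39 to 1.18 (edgeR adjusted p = 0.426). The M-band proteins myomesin 1 (Myom1, -0.44) and myomesin 2 (Myom2, -0.59) did not pass (edgeR adjusted p = 0.288 and 0.330). When trends of expression in each library on gene length and GC content were removed, titin had a log2 fold change of -0.24 and no longer passed (edgeR adjusted p = 0.365), and nebulin had 0.65 (edgeR adjusted p = 0.152). The longest decile of genes had a median of 11529.5 exonic bases, so few genes define the trend at the length of titin. The titin value after removal therefore cannot show whether its decrease followed a general trend on length.

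Long and short genes were then set side by side. Of the 5 short genes 3 were lower (median log2 fold change -1.16), and of the 4 long genes 1 was lower (median -0.25), against 11.7% of all genes tested. The 3 short genes are the troponins, neither light chain passed, and the long gene is titin. In each mouse, the mean log2 RPKM of the short genes minus that of the long genes was 4.95, 5.91, 5.31 and 5.04 after DMSO and 4.70, 5.21 and 4.34 after ABT-263. The group means differed by -0.56, with a pooled SD of 0.44, and mouse 477 lay inside the range of the controls. Troponins against light chains and titin against nebulin are 2 contrasts within these classes that were chosen after their values were seen, and they carry no test. The troponins minus the light chains came to 3.31, 2.94, 2.93 and 3.02 after DMSO and 1.71, 1.99 and 1.40 after ABT-263 on the log2 scale. Here mouse 480 lay with the other controls, and the means differed by -1.35 with no overlap. Titin minus nebulin was 0.34, -0.04, 0.24 and 0.39 after DMSO and -0.85, -0.78 and -1.73 after ABT-263, also apart, with a difference of -1.35. With the trends on length and GC content removed, the fitted log2 fold changes of titin and nebulin were closer to each other, at -0.24 and 0.65. Few genes define the trend at the length of titin, so nothing is concluded from this.

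**Figure D4:**
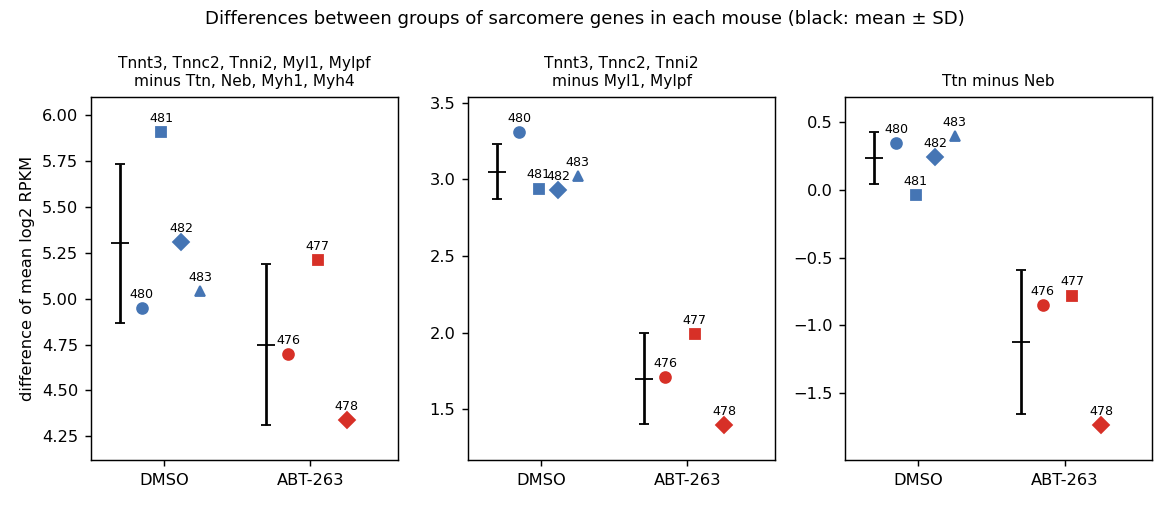
Each point is a mouse, and the y axis gives the difference of mean log2 RPKM between the genes named above each panel, with the group mean ± SD in black (DMSO, n = 4, and ABT-263, n = 3). The groups overlap for all short minus all long genes, and are apart for troponins minus light chains and for Ttn minus Neb.

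Over all 41 genes, fold change and length were loosely related. Spearman's rho between log2 fold change and exonic length was 0.30 (n = 41 genes from the same libraries, a description with no test). The median fold change was -0.94 for the 10 genes under 2 kb, -0.15 for the 20 genes from 2 to 5 kb and -0.46 for the 11 genes of 5 kb or more, so it did not rise steadily with length. In each mouse, the mean log2 RPKM of the 10 genes under 2 kb minus that of the 11 genes of 5 kb or more was 3.76, 4.04, 3.63 and 3.71 after DMSO and 3.36, 3.49 and 3.10 after ABT-263, with no overlap between groups. Among 69 other genes of adult skeletal muscle, rho was 0.58, with medians of -1.17, -0.57 and -0.02 in the same length classes. Across 17949 genes with a known length, rho was 0.07, with medians of -0.15, 0.03 and 0.05. With the trends on length and GC content of all genes removed, rho was 0.34 for the 41 genes and 0.59 for the other muscle genes. What part length had in the fold changes was not tested.

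**Figure D5:**
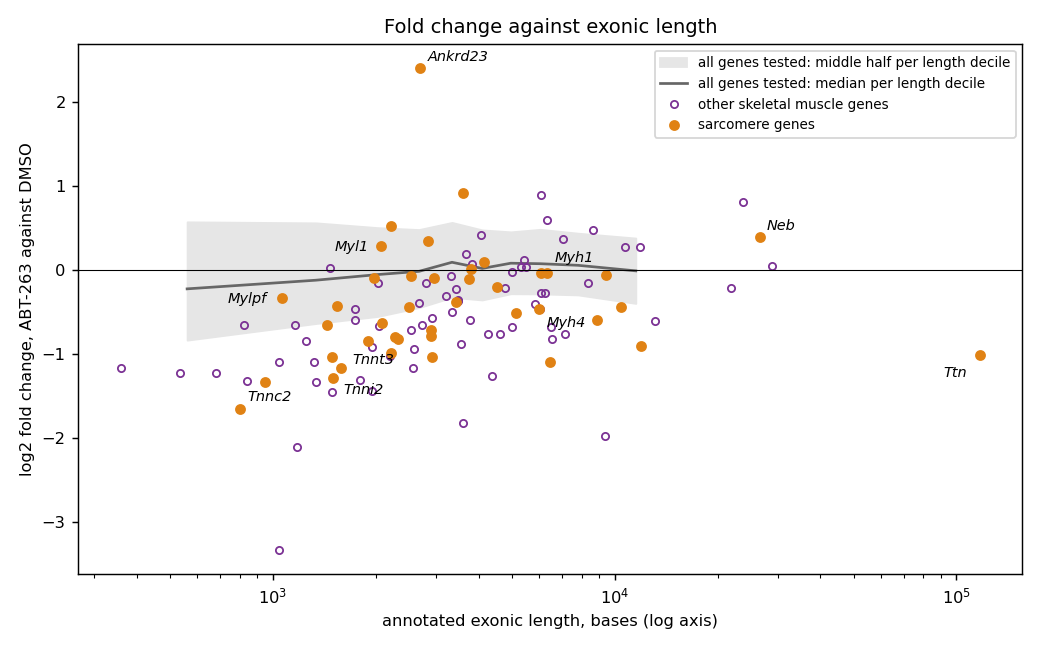
The log2 fold change is plotted against annotated exonic length on a log axis, with the 41 sarcomere genes in orange, 69 other skeletal muscle genes as open circles, and the median and interquartile range of all genes tested per length decile in grey. The troponins sit below the grey band at the short end, Mylpf and Myl1 of like length sit inside it, and Ttn and Neb at the long end lie apart.

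At the Z-disc and the costamere, 2 of 14 genes were lower and 1 was higher, against 11.7% lower and 12.4% higher among all genes tested. Tcap, telethonin, which caps titin at the Z-disc, was at 1922, 4401, 2901 and 3361 CPM after DMSO and 1107, 1315 and 1346 CPM after ABT-263. It was apart between groups and 2.51-fold lower (log2 -1.33, standard error 0.30, edgeR adjusted p = 0.0199). Myoz1, a calsarcin of fast fibres that binds calcineurin, was at 318, 558, 513 and 654 CPM after DMSO and 290, 235 and 329 CPM after ABT-263. Mouse 480 lay below the highest treated mouse, and the decrease was 1.79-fold (log2 -0.84, standard error 0.26, edgeR adjusted p = 0.0467). The gene that rose was Ankrd23, an ankyrin repeat protein that binds titin. It was at 6.59, 12.9, 9.65 and 12.9 CPM after DMSO and 71.9, 19.8 and 75.1 CPM after ABT-263. Every treated mouse was above every control, and mouse 477 was the lowest of them, with a 5.29-fold increase (log2 2.40, standard error 0.46, edgeR adjusted p = 0.0134). It passed with each mouse left out, from 2.13 to 2.83. On its strand 78.2% of its exonic bases are shared with another annotated gene, Gm42417, which is listed at 0 in all 7 libraries. How reads of the shared bases were assigned is uncertain.

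The other 11 Z-disc and costamere genes did not pass. Their log2 fold changes ran from -0.91 for Xirp2, an actin-binding protein of the cell junctions, to 0.52 for Myot, myotilin. The α-actinins, which cross-link actin at the Z-disc, had values of -0.79 (Actn3, fast fibres only) and 0.01 (Actn2). Desmin (Des), which ties Z-discs together, was at -0.11, filamin C (Flnc) at -0.06, Ldb3 at -0.04, Cap2 at 0.09, Smpx at -0.80, Pdlim3 at -0.51 and Myoz3 at -0.38.

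None of the 7 genes for creatine kinase, elongation and turnover passed the test. Ckm, the creatine kinase of the muscle cytosol, was at 3913, 6224, 5594 and 8825 CPM after DMSO and 3231, 2192 and 3608 CPM after ABT-263. Its groups did not overlap, and with a log2 fold change of -1.03 it lay just outside the threshold (edgeR adjusted p = 0.0576). It passed under DESeq2's Wald test, without the filter on low counts, with the trends on length and GC content removed, and without DMSO mouse 480. Ckmt2, the mitochondrial creatine kinase, was at 101, 317, 379 and 497 CPM after DMSO and 140, 121 and 215 CPM after ABT-263, with the same log2 value of -1.03 and overlap through mouse 480 (edgeR adjusted p = 0.158). Eef1a2, the elongation factor that replaces Eef1a1 in adult muscle, had a value of -0.63 (edgeR adjusted p = 0.0800). Among the turnover genes, the ubiquitin ligase genes Trim54 and Trim63 had values of -0.65 and 0.34, and the kelch proteins Klhl40 and Klhl41, which stabilize thin filament proteins, -0.44 and -0.07. Like Ckm, the genes Ckmt2, Eef1a2 and Trim54 passed as lower without DMSO mouse 480. The myosin light chain kinase Mylk2 was at -0.10, and of the myosin-binding proteins Mybph was at -0.82, Mybpc1 at -0.20 and Mybpc2 at 0.91.

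Other genes of adult muscle fibres were read as 4 lists of 69 genes in all. Of these, 14 were lower and 2 higher, against 11.7% lower and 12.4% higher among all genes tested, and the median of their log2 fold changes was -0.59. Of 23 genes for calcium handling and excitation, 6 were lower and 1 was higher. Pvalb, the calcium buffer parvalbumin of fast fibres, was at 1514, 2506, 484 and 2122 CPM after DMSO and 154, 126 and 213 CPM after ABT-263 (log2 -3.33, standard error 0.56, edgeR adjusted p = 0.00942). Triadin (Trdn, -1.98), calsequestrin 1 (Casq1, -1.44) and myoregulin (Mrln, -2.11), which hold or regulate calcium in the sarcoplasmic reticulum, were lower as well. The gene that was higher, named here after its values were seen, is Atp2a2, the calcium pump of slow fibres, heart and many other cells. It was at 110.6, 75.6, 81.3 and 73.5 CPM after DMSO and 141.7, 160.9 and 171.9 CPM after ABT-263, with no overlap (log2 0.89, standard error 0.17, edgeR adjusted p = 0.0125). Of 18 genes of muscle metabolism 6 were lower, among them the mitochondrial subunit genes Cox6a2 (-1.22) and Cox8b (-1.17), adenylate kinase 1 (Ak1, -0.94) and the glycolytic enzyme gene Pgam2 (-1.32). Of 19 genes that link the membrane to the matrix, Itgb1bp2 was lower (-1.31) and Dag1, dystroglycan, higher (0.59). Of 9 slow sarcomere genes, Tnni1 was lower, at 49.3, 49.6, 56.2 and 24.4 CPM after DMSO and 15.3, 11.6 and 11.2 CPM after ABT-263 (log2 -1.82, edgeR adjusted p = 0.00819). The other slow troponins, Tnnt1 (-1.02) and Tnnc1 (-1.10), did not pass. Without DMSO mouse 480, 25 of the 69 were lower, and 8 and 9 were without DMSO mouse 482 and ABT-263 mouse 476. Of all genes tested in these fits, 4169 of 17738, 1824 of 17706 and 2228 of 18576 passed in either direction.

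Among markers of other skin cells, those of macrophages and fibroblasts were in part higher after ABT-263. Of all genes tested, 12.4% were higher and 11.7% lower. Of 6 macrophage genes 5 were higher, and their summed level was 180.3 to 472.1 CPM after DMSO and 656.8 to 2343 CPM after ABT-263. Of 6 fibroblast genes 3 were higher, from a sum of 3798 to 5304 to a sum of 6004 to 8569 CPM. None of the 6 keratinocyte genes and none of the 6 adipocyte genes passed. The keratinocyte sum was highest in mouse 480 among the controls (51510 CPM, the others 21210 to 28590) and in mouse 477 among the treated mice (51830 CPM, the others 18430 and 28900), the mice with the lowest share of sarcomere counts in each group. Of 11 genes of smooth muscle and pericytes 2 were lower, with a sum of 600.8 to 756.7 CPM after DMSO and 627.3 to 798.2 CPM after ABT-263. No marker of these lists was at 0 in every library. What part these shifts had in the sarcomere values was not tested.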

How the data were processed

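Reads were aligned by the authors with STAR 2.7.9a (genome mm10), who then counted uniquely aligned proper pairs on the same strand with featureCounts (Subread 1.6.2) for non-mitochondrial genes of Ensembl build 109. The deposited values used here are raw counts per gene. A deposited table of variance-stabilized values was not used. The sources name different RNA extraction kits. The labels name no batch.

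Of the 55450 identifiers, 55190 had a symbol, position and length in GENCODE M21 (GRCm38). Counts were normalized with TMM and tested in R 4.3.3 with edgeR 4.0.16 (filterByExpr, robust quasi-likelihood fit, two-sided, Benjamini-Hochberg adjustment), on 4 DMSO and 3 ABT-263 mice with no covariate. Intervals are 95% intervals of the fit. RPKM used all annotated exonic bases of a gene. Scripts were tested on simulated data. Alternatives were DESeq2 1.42.0 (Wald test, size factors), other filters, removal of trends on length and GC content with mgcv 1.9.3, and each mouse left out. Counts thinned to the smallest library were added after seeing the data.

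The genes, the lists and the contrasts were chosen with earlier results of these data known. Full values are given for the long and short genes of the contrast, the creatine kinases, Acta1 and every one of the 41 genes past the threshold. Of other muscle lists, at most 4 genes a list with the smallest p-values, plus isoform partners, are named, some by fold change alone.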

Additional observations from a re-analysis of the deposited data

Results flagged for a closer look

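In the DMSO group, the titin (Ttn) level of mouse 480 stood apart from the other 3 controls. It was 997 CPM against 1859, 1956 and 1995 CPM, a gap of 0.863 of the range of the group, above Dixon's 95% critical value for 4 samples. Chance alone puts about 1 in 20 groups past this limit. Among 45 measures examined in the 4 DMSO mice, 1 passed it, and 2.25 would by chance. Without mouse 480, titin was still lower after ABT-263 and the number of sarcomere genes that were lower was 16 rather than 8. Of all genes tested, 4169 of 17738 then passed in either direction, against 4342 of 17959 with every mouse.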

How the results depend on the processing

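The number of sarcomere genes that were lower was 8 to 10 over the alternatives that kept every mouse, and from 1 to 16 with 1 mouse left out, while Ankrd23 was the gene that was higher in each. The total of genes past the threshold was 4342, and from 1735 to 4169 with 1 mouse left out. Of the 69 other muscle genes 14 were lower, and from 8 to 25 with 1 mouse left out. The cause of these shifts was not tested. Leave-one-out fits gave Myh1 from -0.22 to 0.16 and Myh4 from -0.91 to 0.61, and turned the sign of Myh1 (0.16 without DMSO mouse 481 and 0.11 without ABT-263 mouse 476) and of Myh4 (0.61 without DMSO mouse 483 and 0.10 without ABT-263 mouse 477), neither of which passed the test. The median log2 fold change of the 41 genes lay between -0.61 and -0.27 over all alternatives. The short minus long difference of mean fitted log2 fold changes was -0.54 in the main fit and lay between -0.80 and -0.39 over the alternatives. The value of -0.80 came from the removal of length and GC trends, where titin moved from -1.01 to -0.24, and nothing is concluded from it. Of 238 values of named genes under an alternative, 189 kept their direction and side of the threshold, 40 no longer passed, 5 newly passed and 4 changed sign. DESeq2's Wald test added Tpm2 and Ckm, and removal of length and GC trends dropped Ttn (log2 -0.24) and added Ckm. Each sarcomere gene had at least 161 counts in each library, so 4 and 3 mice limit the precision more than depth does. No paired analysis was possible because the groups share no replicate numbers.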

Other observations

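Genes of embryonic muscle and of muscle regeneration were read as a list apart from the adult genes. Of 14 listed genes 13 could be tested, 7 were lower in edgeR's test (against 11.7% of all genes tested), and their median log2 fold change was -1.63. Myl4, a light chain of embryonic muscle and atria, was at 26.2, 22.9, 20.1 and 32.0 CPM after DMSO and at 8.12, 7.59 and 7.93 CPM after ABT-263, with no overlap (log2 -1.68, standard error 0.19, edgeR adjusted p = 0.00578). Mymx, which acts in myoblast fusion, was barely counted after ABT-263, at 0.036, 0.025 and 0.13 CPM against 0.53, 1.98, 1.28 and 0.86 CPM after DMSO (edgeR adjusted p = 0.0108), and no fold is given at so few counts. Ncam1, an adhesion protein of immature and denervated fibres, was lower by a log2 fold change of -1.03 (edgeR adjusted p = 0.0159). Mymk, which fuses myoblasts, was lower as well (edgeR adjusted p = 0.0169). It too had few counts, at 0.68, 0.23 and 0.64 CPM after ABT-263 against 2.6, 6.6, 3.2 and 1.6 CPM after DMSO. Actc1, the actin of embryonic muscle and heart, had a value of -1.29 and did not pass (edgeR adjusted p = 0.0780).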
